A study of Mus musculus with 31 samples.

Results

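Cytochrome P450 enzymes of families 1 to 4 were followed through the livers of mice given a *Upf3b*-GalNAc-ASO, a Control-GalNAc-ASO or DPBS. The members were the genes whose mouse symbols consist of Cyp, a family digit from 1 to 4, a subfamily letter, a gene number and at most 1 closing letter, which took in 80 of the 31172 gene symbols in the tables. They fall into 21 subfamilies, the largest being Cyp2c with 15 members. All 31 mice carried *hFIX-R29X*, a minigene transgene for human coagulation factor IX bearing the nonsense change R29X, expressed from the liver-active human transthyretin promoter, in animals without the mouse *F9* gene, and were 8 to 14 weeks old. DPBS, the buffer control, was given to 11 mice (6 females and 5 males). The Control-GalNAc-ASO was given at 15 mg/kg to 4 mice (2 females and 2 males) and at 20 mg/kg to 6 mice (3 females and 3 males). The *Upf3b*-GalNAc-ASO was given at 10 mg/kg to 5 mice (2 females and 3 males) and at 20 mg/kg to 5 mice (2 females and 3 males). An antisense oligonucleotide (ASO) is a short modified DNA strand that lets RNase H cut its target mRNA, and the GalNAc sugar carries it into hepatocytes through the asialoglycoprotein receptor. *Upf3b* encodes a factor of nonsense-mediated mRNA decay, the pathway that degrades mRNAs with premature stop codons. Both sexes were present in every group, and RNA came from whole liver.

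P450 enzymes are haem proteins of the endoplasmic reticulum that insert an oxygen atom into their substrates, with electrons passed on by NADPH-P450 reductase (*Por*) and cytochrome b5. Enzymes of the CYP1, CYP2 and CYP3 families oxidise drugs, toxins and steroids, and those of the CYP4 family mostly hydroxylate the end of fatty acids and eicosanoids. Many P450 genes of rodent liver are expressed mainly in females or mainly in males, because the pituitary releases growth hormone in sharp pulses in males and more evenly in females. The nuclear receptors CAR, PXR and PPARA and the aryl hydrocarbon receptor switch on further sets of these genes when their ligands are present.

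Each mouse gave 1 value per gene symbol as TPM, a measure of transcript abundance scaled to a fixed library total. The values of low genes fell on whole multiples of 1 step within a mouse, the same step for every gene, so the values scale with reads and not with transcript length, and the tests compare mice within a gene. Sums over genes weight each gene by its reads, and levels of different genes were not ranked. By that step, the mice carried 1020676 to 7391615 reads (median 3627941), and 3 reads were worth 0.406 to 2.94 TPM. The 4 mice under 2000000 reads were all females: DPBS replicates 6 and 7, control ASO 20 mg/kg replicate 1 and *Upf3b* ASO 10 mg/kg replicate 3. *Upf3b* averaged 89.6 ± 34.3 TPM (SD, n = 10) with the Control-GalNAc-ASO and 14.7 ± 15.6 TPM (SD, n = 10) with the *Upf3b*-GalNAc-ASO. Its log2 difference was -2.91 (limma, adjusted p = 7.3e-05) with both dose sets together and -3.87 at 20 mg/kg. At the low doses it was -1.73 and did not pass (adjusted p = 0.211), and replicate 3 given 10 mg/kg, the female with the fewest reads, still had 53.7 TPM. That value lay within the control ASO range of 27.1 to 135 TPM. The 5 hepatocyte markers summed to 13636 to 28279 TPM in the control ASO mice and 14792 to 27482 TPM in the *Upf3b* ASO mice, whereas kidney tubule markers reached at most 0.605 TPM in any mouse. The 3 intestine markers summed to 16.9 to 166 TPM with DPBS, 34.3 to 129 TPM with the control ASO and 11.7 to 116 TPM with the *Upf3b* ASO. In whole liver, fewer cells of a type and less RNA per cell cannot be told apart.

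Of the 80 members, 45 reached a median of 5 TPM in at least 1 group of some comparison and were tested there, and 40 were tested in all 8 comparisons. The remaining 35 comprised 12 listed at 0 in all mice, among them *Cyp2b13*, *Cyp2c65* and *Cyp4f39*, 6 that were above 0 but never reached 3 reads, and 17 that reached 3 reads in at least 1 mouse. *Cyp1a1* and the 5 Cyp2b genes were among the untested members, and so were *Cyp1b1*, *Cyp2g1*, *Cyp2s1*, *Cyp2t4* and *Cyp2w1*. The members took 0.668 to 2.27% of a mouse's summed TPM (median 1.41%). In DPBS mice that share was 1.99 ± 0.181% in females (SD, n = 6) and 1.16 ± 0.135% in males (SD, n = 5). *Cyp2e1*, *Cyp2a5*, *Cyp2a4*, *Cyp2a12* and *Cyp4a14* together supplied 50.4 to 74.7% of the members' summed TPM, so that sum mostly follows the reads of 5 genes. By the gene annotation of GRCm38, 79 of the 80 members were placed, and members of 1 subfamily mostly lie on 1 chromosome. The Cyp2c genes occupy chr19:39007019-40187333, the Cyp2a genes chr7:26307169-27037375, the Cyp3a genes chr5:137892932-146113287, the Cyp4a genes chr4:115242084-115621602 and the Cyp2d genes chr15:82370527-82794294. Cluster neighbours are often near copies, which limits how reads could be divided among them. In the last 500 bases of the annotated transcripts, *Cyp3a41a* shared 100% of its 31-base words with another gene, *Cyp2c40* 84.0%, *Cyp2a4* 64.0%, *Cyp4a12a* 53.0%, *Cyp2c69* 49.6% and *Cyp2c37* 43.4%. Values of these genes are therefore uncertain as to which copy they count.

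Of the 8 comparisons, that between the sexes called the most P450 members. Among DPBS mice, 16 of the 43 members tested differed between males and females (limma on log2(TPM + 1), Benjamini-Hochberg adjusted p below 0.05 over all genes), against 1.41% of all genes tested. In males, 11 members were lower, against 0.745% of all genes, and 5 were higher, against 0.667%. *Cyp3a41a* and *Cyp3a41b* reached the median of 5 TPM only in females, and *Cyp4a12a* and *Cyp4a12b* only in males, which favoured their direction. The median male minus female log2 difference was -0.36 over the members and 0.03 over all genes.

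The female-predominant members were led by 2 genes of the Cyp2c cluster and the Cyp3a41 pair. *Cyp2c69* stood at 180, 404 and 947 TPM in DPBS females (lowest, median and highest) and at 3.69, 6.05, 0.644, 7.49 and 6.32 TPM in DPBS males. The groups did not overlap, and the log2 difference was -6.46 (SE 0.47, adjusted p = 1.9e-07). *Cyp2c40*, an arachidonic acid hydroxylase, stood at 137, 205 and 390 TPM in females and did not exceed 8.60 TPM in males, a log2 difference of -5.69 (SE 0.50, adjusted p = 1.3e-06). *Cyp3a41a*, a steroid hydroxylase known for its restriction to females, varied far more among females, from 25.1 through a median of 116 to 993 TPM, and 3 of 5 males held fewer than 3 reads of it. Its log2 difference was -6.27 (SE 0.97, adjusted p = 0.0038). The near-identical *Cyp3a41b* was lower in males as well, at -3.61 (SE 0.74, adjusted p = 0.0139), but it cannot be separated from *Cyp3a41a* in its closing 500 bases, and none of the 5 males had 3 reads. *Cyp2c38* averaged 72.9 TPM in females and 7.90 TPM in males, a log2 difference of -3.03 (SE 0.34, adjusted p = 1.7e-05). *Cyp2c37*, which oxidises arachidonic acid, showed a smaller difference of -1.65 (SE 0.27, adjusted p = 0.0017), with 194 to 586 TPM in females and 75.2 to 137 TPM in males.

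The Cyp2a and Cyp4a subfamilies added abundant members to this side. *Cyp2a5*, the coumarin hydroxylase, averaged 4150 ± 968 TPM in females (SD, n = 6) and 1031 ± 236 TPM in males (SD, n = 5), with a log2 difference of -2.01 (SE 0.22, adjusted p = 1.7e-05). *Cyp2a4*, a testosterone hydroxylase that shares much of its sequence with *Cyp2a5*, averaged 3213 and 1283 TPM (-1.32, adjusted p = 0.0034). Neither gene had a male above the lowest female. *Cyp4a14* and *Cyp4a10*, fatty acid hydroxylases that PPARA activates, were lower in males by log2 differences of -2.38 (SE 0.27, adjusted p = 2.1e-05) and -1.68 (SE 0.39, adjusted p = 0.0345). *Cyp4a14* spanned 867 to 1762 TPM in females and 116 to 318 TPM in males. The 2 weakest calls rested on particular mice. *Cyp4a10* missed the threshold when any of 8 of the 11 DPBS mice was left out, with adjusted p up to 0.100, and held without replicate 6, 8 or 10. *Cyp2a22*, at 283 TPM in females and 87.1 TPM in males (-1.54, adjusted p = 0.0187), missed it without DPBS replicate 1, 2 or 11, with adjusted p of 0.0515, 0.0651 and 0.0583.

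Male-predominant members came from other subfamilies. *Cyp2d9*, a steroid hydroxylase, spanned 401 to 649 TPM in males and 8.39 to 30.6 TPM in females, a log2 difference of 5.09 (SE 0.31, adjusted p = 9.9e-09). *Cyp4a12a*, the main enzyme making the vasoactive eicosanoid 20-HETE in mouse and a gene raised by androgen, spanned 169 to 298 TPM in males and 0 to 6.46 TPM in females, a difference of 6.37 (SE 0.50, adjusted p = 1.9e-07). *Cyp4a12b*, its close copy, was higher in males by 5.61 (SE 0.47, adjusted p = 4.6e-07), and 5 of 6 females held fewer than 3 reads, so the size of that difference depends on the pseudocount. The Cyp4a cluster thus held 2 members higher in males and 2 lower in males among 4 tested. *Cyp2f2*, a periportal enzyme that activates naphthalene, averaged 843 ± 116 TPM in males (SD, n = 5) and 342 ± 95.2 TPM in females (SD, n = 6), a difference of 1.34 (SE 0.23, adjusted p = 0.0022). *Cyp2u1*, a fatty acid hydroxylase, averaged 150 TPM in males and 42.2 TPM in females (2.24, adjusted p = 0.0141). For *Cyp2u1* the sexes overlapped through DPBS replicate 10, a female with 126 TPM against a lowest male of 117 TPM, and the call was lost without DPBS replicate 2 (adjusted p = 0.0529).

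**Figure D1:**
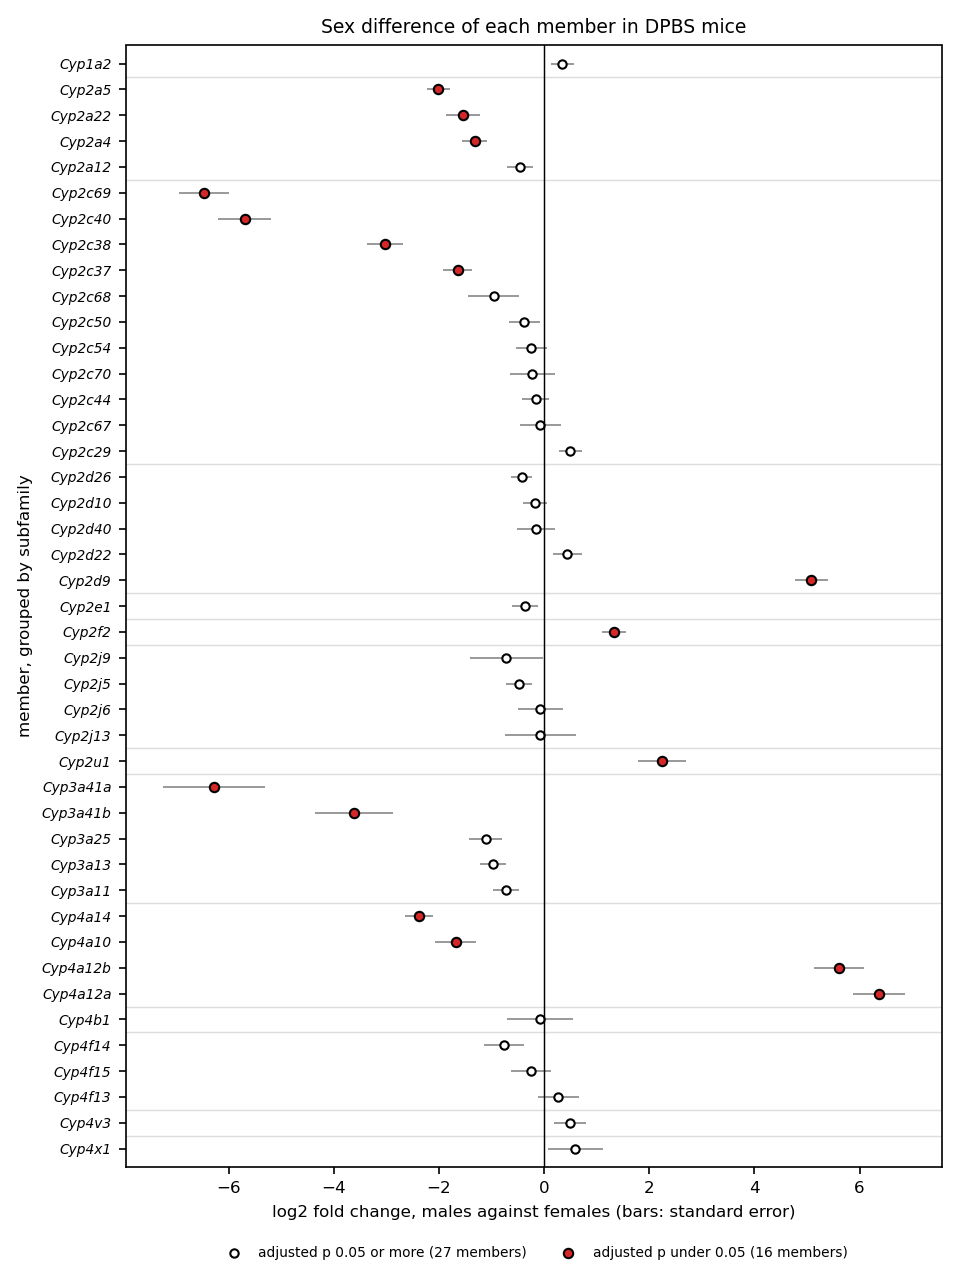
Male minus female difference of each tested P450 member in DPBS mice on the log2(TPM + 1) scale (horizontal axis), with points for limma estimates and bars for standard errors. *Cyp2c69*, *Cyp3a41a* and *Cyp2c40* lie farthest on the female side, at -6.46, -6.27 and -5.69, and *Cyp4a12a*, *Cyp4a12b* and *Cyp2d9* farthest on the male side, at 6.37, 5.61 and 5.09.

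Several subfamilies showed no call between the sexes. None of the 4 Cyp2j or 3 Cyp4f members tested passed in limma. *Cyp1a2*, the pericentral caffeine-oxidising enzyme, had a difference of 0.34 (adjusted p = 0.620), and *Cyp3a11*, the main drug-oxidising Cyp3a enzyme, -0.72 (adjusted p = 0.277). All 5 Cyp3a members tested had lower estimates in males. Of the genes listed as female-predominant from general knowledge, 5 of 10 were abundant enough to test and 5 of 5 were lower in males, and of those listed as male-predominant 4 of 4 were higher in males. These lists were drawn up from the known behaviour of the genes in mouse liver, so their direction is not a new result. In addition, *Cyp3a41a* and *Cyp3a41b* entered the test through females only, and *Cyp4a12a* and *Cyp4a12b* through males only. The counts for both lists and for Cyp3a thus follow in part from the filter.

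The promoters of the members were examined in the RefSeq annotation of GRCm38.p6. A window from 250 bases before to 50 bases after the start site was matched for 65 of the 80 members. The word CAAAGTCCA, which resembles sites bound by HNF4A, a nuclear receptor central to hepatocyte gene expression, occurred on either strand in 10 of these 65 members (15.4%) and in 0.475% of all 32851 windows. All 10 were Cyp2c genes (6 of 13 with a window) or Cyp3a genes (4 of 9 with a window), families of paralogs that share ancestry and hence sequence. The stretches of 57 bases around the word are shown for 4 genes of each kind, those with a large sex difference (*Cyp2c69*, *Cyp2c40*, *Cyp3a41a* and *Cyp3a41b*) and those tested without a call (*Cyp2c67*, *Cyp2c68*, *Cyp2c70* and *Cyp3a11*), 5′ to 3′ on the minus strand that carries each gene, with the word in capitals.
Cyp2c69, chr19:39886812-39886868: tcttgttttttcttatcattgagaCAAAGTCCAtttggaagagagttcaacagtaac
Cyp2c40, chr19:39812827-39812883: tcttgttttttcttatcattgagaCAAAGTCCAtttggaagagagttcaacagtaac
Cyp2c67, chr19:39649135-39649191: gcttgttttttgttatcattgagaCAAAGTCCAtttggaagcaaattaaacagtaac
Cyp2c68, chr19:39741146-39741202: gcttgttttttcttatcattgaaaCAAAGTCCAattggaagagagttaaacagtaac
Cyp2c70, chr19:40187318-40187374: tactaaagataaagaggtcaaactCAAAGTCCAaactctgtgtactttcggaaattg
Cyp3a41a, chr5:145720199-145720255: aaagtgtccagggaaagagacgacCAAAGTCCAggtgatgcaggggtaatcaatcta
Cyp3a41b, chr5:145584793-145584849: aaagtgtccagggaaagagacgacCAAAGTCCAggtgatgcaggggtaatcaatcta
Cyp3a11, chr5:145879931-145879987: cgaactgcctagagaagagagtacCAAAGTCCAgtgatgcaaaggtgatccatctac

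The stretches of *Cyp2c69* and *Cyp2c40* were identical over all 57 bases, and those of *Cyp2c68* and *Cyp2c67* differed from *Cyp2c69* at 4 and 6 bases. *Cyp3a41a* and *Cyp3a41b* were identical too, and *Cyp3a11* matched *Cyp3a41a* at 28 of 57 bases without gaps. The word was found in 4 of the 9 female-predominant members with a window, in 0 of 2 male-predominant members and in 4 of 23 members tested without a call. Within Cyp2c and Cyp3a, it thus occurred both in members called higher in females and in members without a call. The STAT5-type word TTCNNNGAA was found in 6.15% of the members against 8.30% of all windows, the AHR-type word GCGTG in 20.0% against 32.4%, the word TGAACT in 16.9% against 14.0%, a perfect direct repeat of the PPARA type in 0 of 65 against 0.0396%, and the TATA box word TATAAA in 44.6% against 13.6%, all counted on both strands. The words were chosen with the expression values known. A match describes the letters of the window and does not show that a factor binds there.

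The effect of *Upf3b* depletion was read from the *Upf3b*-GalNAc-ASO against the Control-GalNAc-ASO, with both dose sets together (10 against 10 mice) and sex and dose set as covariates. The members leaned to lower values. Of 44 members tested, 33 had lower and 11 higher estimates, with a median log2 difference of -0.37 over the members and -0.06 over all genes. Of these, *Cyp2c40*, *Cyp2j9*, *Cyp2j13*, *Cyp2r1* and *Cyp3a41a* reached the median of 5 TPM only in control ASO groups. Their entry thus favoured lower estimates. Fewer passed the test: 3 members fell and 0 rose in limma, against 3.64% of all genes that fell and 6.04% called in either direction, and 17 members had an unadjusted p below 0.05, against 21.5% of all genes. The share of members called in either direction, 3 of 44 (6.82%), was thus near that of all genes.

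*Cyp2c37* fell with the best-supported change. Control ASO females had 310, 229, 301, 135 and 269 TPM and males 84.4, 151, 115, 99.3 and 82.1 TPM. *Upf3b* ASO females had 142, 108, 137 and 111 TPM, and males spanned 11.1 to 105 TPM with a median of 49.1 TPM. Of the 4 treated females 2 lay below the lowest control female, and 5 of the 6 treated males lay below the lowest control male. The log2 difference was -1.17 (SE 0.26, adjusted p = 0.0073), and the adjusted p stayed between 0.0034 and 0.0183 whichever mouse was left out. *Cyp2c37* shares 43.4% of its terminal 31-base words with other genes, most of them with *Cyp2c50*, whose own estimate was -0.70 (adjusted p = 0.0821).

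*Cyp4f14*, which hydroxylates leukotriene B4 and so inactivates an inflammatory lipid, also fell. Control ASO mice held 93.4, 74.4, 83.4, 57.0 and 81.9 TPM in females and 91.4, 99.1, 61.5, 69.9 and 58.5 TPM in males. *Upf3b* ASO females held 50.3, 13.7, 37.2 and 22.8 TPM, and males spanned 6.91 to 72.3 TPM with a median of 37.5 TPM. The females did not overlap, and 2 of 6 treated males reached the range of the control males. The log2 difference was -1.36 (SE 0.31, adjusted p = 0.0079, 0.0021 to 0.0169 without single mice). Mice given DPBS ranged from 21.1 to 107 TPM, which overlaps both ASO groups, and against DPBS no difference of *Cyp4f14* passed the test for either ASO.

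*Cyp2j9* was the third member to fall, at -1.73 (SE 0.51, adjusted p = 0.0384), but at low levels. It reached the median of 5 TPM only in the control ASO 15 mg/kg group, which favoured a lower estimate. Control ASO mice spanned 0.978 to 15.7 TPM (median 8.00), and *Upf3b* ASO mice 0 to 7.81 TPM (median 0.794), with 3 of the treated mice at 0. The call was lost when any 1 of 10 of the 20 mice was left out (adjusted p up to 0.0912): control ASO 15 mg/kg replicates 1, 2 and 3, control ASO 20 mg/kg replicates 3, 4 and 5, *Upf3b* ASO 10 mg/kg replicates 1 and 5, or *Upf3b* ASO 20 mg/kg replicates 2 and 4. It was also lost without the TPM filter (adjusted p = 0.0503), without the sex covariate (adjusted p = 0.0551) and with the replicate number as a block (-1.59, adjusted p = 0.149). The highest treated mouse, 1 of the males given 20 mg/kg, lay just below the control median, so the groups overlapped.

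**Figure D2:**
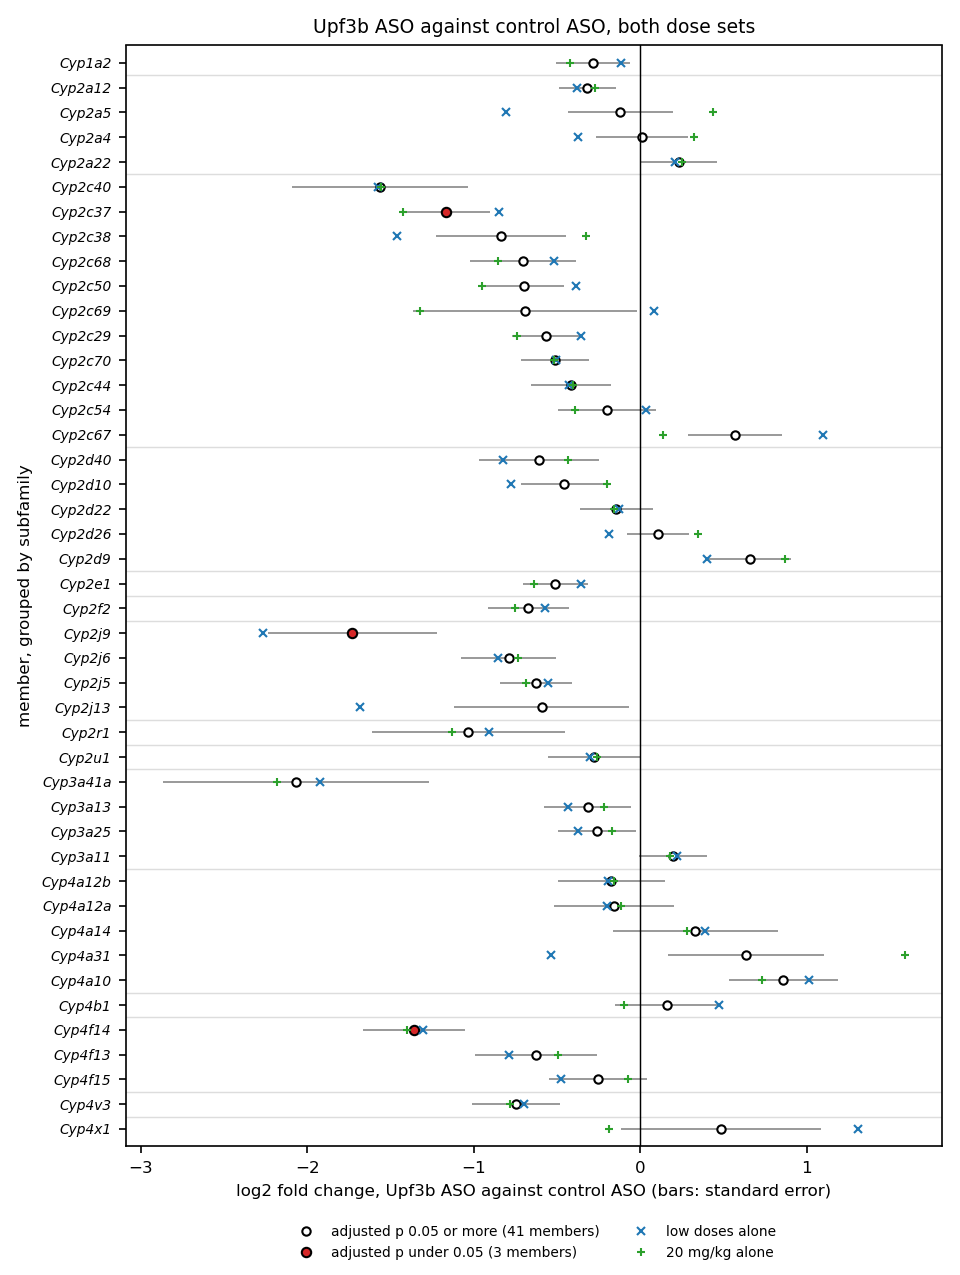
Difference between *Upf3b* ASO and control ASO mice for each tested P450 member on the log2(TPM + 1) scale (horizontal axis): points are limma estimates over both dose sets, bars their standard errors, crosses the low doses alone and plus signs 20 mg/kg alone. Estimates lay below 0 for 33 of 44 members, and *Cyp2c37* (-1.17), *Cyp4f14* (-1.36) and *Cyp2j9* (-1.73) passed the test.

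By subfamily, the lower estimates were unevenly spread. In Cyp2c, 10 of 11 members had lower estimates (median -0.69), in Cyp2j 4 of 4 (median -0.71) and in Cyp4f 3 of 3 (median -0.63), each with 1 member called. *Cyp2c40*, *Cyp2j9* and *Cyp2j13* entered the test only through control ASO groups, so the Cyp2j count, median and call follow in part from the filter. *Cyp2c29*, a CAR-responsive epoxygenase, stood at -0.57 (SE 0.20, adjusted p = 0.0905), *Cyp2c40* at -1.57 (SE 0.53, adjusted p = 0.0773) and *Cyp2j5*, the main hepatic and renal Cyp2j epoxygenase, at -0.63 (SE 0.21, adjusted p = 0.0779). These did not pass, though *Cyp2c40* did with the replicate number as a block (-1.87, adjusted p = 0.0242). It also passed without control ASO 15 mg/kg replicate 3 (adjusted p = 0.0162) or control ASO 20 mg/kg replicate 3 (adjusted p = 0.0233), both males with 0 TPM of it. Leaving out other single mice gave adjusted p up to 0.175. Cyp2a members sat near 0, with a median of -0.05, and Cyp2d members at a median of -0.14. Among Cyp4a, 3 of 5 estimates were higher (median 0.33). *Cyp4a10* reached 0.86 (adjusted p = 0.112), *Cyp4a31* 0.64 (adjusted p = 0.447) and *Cyp2d9* 0.66 (adjusted p = 0.105). *Cyp2e1*, the pericentral ethanol-oxidising enzyme, stood at -0.51 (adjusted p = 0.114) and the periportal *Cyp2f2* at -0.67 (adjusted p = 0.0931), so enzymes of both zones had lower estimates and neither passed.

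Lists of receptor targets and of sex-predominant members held at most 7 tested members, too few to set their calls beside the share of all genes. Over all genes, 3.64% fell and 6.04% were called in either direction. Of the CAR and PXR targets, 1 of 7 tested fell, namely *Cyp2c37*, and the list's median was -0.32. The 3 PPARA targets tested had higher estimates with 0 called in limma and unadjusted p from 0.0131 (*Cyp4a10*) to 0.513 (*Cyp4a14*). *Cyp1a2*, the 1 aryl hydrocarbon receptor target tested, stood at -0.28 (adjusted p = 0.482). Of the female-predominant list 0 of 4 tested members passed, with a median of -1.13, and of the male-predominant list 0 of 4, with a median of -0.16. *Cyp2c40* and *Cyp3a41a* of the female-predominant list entered the test only through control ASO groups, so that list's median follows in part from the filter.

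Within each dose set fewer members passed. At 20 mg/kg, *Cyp2c37* alone of 42 members tested fell, at -1.42 (SE 0.35, adjusted p = 0.0353), against 1.59% of all genes lower and 2.52% called in either direction. In all, 14 members had an unadjusted p below 0.05, against 18.7% of all genes. That call was lost when any 1 of 8 of the 11 mice was left out (adjusted p up to 0.111), and it held without control ASO replicate 4 or *Upf3b* ASO replicate 2 or 4. It was also lost without the 1 control female under 2000000 reads, leaving 0 members. The median of all genes was -0.12 in this comparison, and relative to it *Cyp2c37* stood at -1.31. *Cyp4f14* stood at -1.40 (adjusted p = 0.0778). It passed without *Upf3b* ASO replicate 5 (adjusted p = 0.0124), and other single mice left out gave adjusted p up to 0.183. *Cyp2c40* stood at -1.56 (adjusted p = 0.166). It passed without control ASO 20 mg/kg replicate 3 (adjusted p = 0.0155), a male with 0 TPM of it, and other single mice left out gave adjusted p up to 0.380. At the low doses (10 against 15 mg/kg), where the fall of *Upf3b* itself did not pass, 0 of 44 members passed in limma, against 0.295% of all genes, and 6 had an unadjusted p below 0.05, against 15.8%. The 2 lowest of those p-values belonged to *Cyp4f14* (-1.31, adjusted p = 0.165) and *Cyp2j9* (-2.27, adjusted p = 0.179). Without *Upf3b* ASO 10 mg/kg replicate 1 *Cyp4f14* passed (adjusted p = 0.0322), and other single mice left out gave adjusted p up to 0.477. *Cyp2c67* was higher at the low doses, at 1.10 (adjusted p = 0.232). The change at 20 mg/kg did not differ from that at the low doses for any of 44 members in limma, with 1 member (*Cyp4a31*) at an unadjusted p below 0.05 against 8.16% of all genes, and 0% of all genes were called.

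*Cyp2c69* and *Cyp3a41a* were also read within each sex, since males hold little of either. For *Cyp2c40*, likewise female-predominant, the difference in females alone was -1.55 (limma, adjusted p = 0.150). Its treated females (30.6 to 124 TPM) overlapped the control ASO females (112 to 360 TPM), and its entry through control ASO groups only favoured a lower estimate. *Cyp2c69* held 349 and 266 TPM in the females given the control ASO at 15 mg/kg and 298, 160 and 129 TPM at 20 mg/kg. In females given the *Upf3b* ASO it held 70.0 and 76.0 TPM at 10 mg/kg, and 7.91 and 10.1 TPM at 20 mg/kg. Every treated female thus lay below every control female, and those at the higher dose lay lowest, with 2 females at each dose. The female at 76.0 TPM was replicate 3, with 1020676 reads and *Upf3b* at 53.7 TPM, within the control ASO range. In females alone, the log2 difference of *Cyp2c69* was -3.23 (SE 0.44, adjusted p = 0.0014), the 1 call among 44 members against 0.49% of all genes. At 20 mg/kg it was -4.21 (adjusted p = 3.3e-05), again 1 member called against 0.544% of all genes, and at the low doses -2.05 (adjusted p = 0.848). Treated males spanned 0.525 to 16.7 TPM and control males 0 to 4.31 TPM, for an estimate of 1.38 (adjusted p = 0.391), and in males alone 0 of 44 members passed in limma, against 0.633% of all genes.

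*Cyp3a41a* held 112, 156, 257, 9.08 and 182 TPM in control ASO females and 0.296, 28.4, 2.14 and 0.564 TPM in *Upf3b* ASO females. The single overlap was between the lowest control and the highest treated female. That treated female was *Upf3b* ASO 10 mg/kg replicate 3, whose *Upf3b* stood at 53.7 TPM. Of the 4 treated females, 2 had fewer than 3 reads of *Cyp3a41a*. In females alone the difference was -4.82 (adjusted p = 0.0730), and in males 0.17 (adjusted p = 0.938). *Cyp3a41a* entered the ASO comparison only through control ASO groups, which favoured a lower estimate. The difference between the sexes in treatment effect was tested directly by an interaction term. It was 4.36 for *Cyp2c69* (male minus female, SE 0.95, unadjusted p = 8.1e-05, adjusted p = 0.264) and 4.85 for *Cyp3a41a* (SE 1.19, unadjusted p = 0.00037, adjusted p = 0.596). Neither passed over all genes, 0 of 44 members did in limma, 7 had an unadjusted p below 0.05 against 3.35% of all genes, and 0.0102% of all genes were called. A sex-specific effect was therefore not shown by this test.

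The neighbouring *Cyp3a44*, too low to be tested across genes and picked out after its values were seen, was lower in treated females as well, as a description. It stood at 2.63 to 8.43 TPM in the 5 control ASO females and at 0 to 0.325 TPM in the 4 *Upf3b* ASO females, all of the latter below 3 reads. DPBS females ranged from 0 to 44.3 TPM, which takes in both ASO groups, and no male exceeded 0.479 TPM. *Cyp3a44* shares 52.6% of its terminal 31-base words with other genes, so its reads are not independent of its neighbours.

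**Figure D3:**
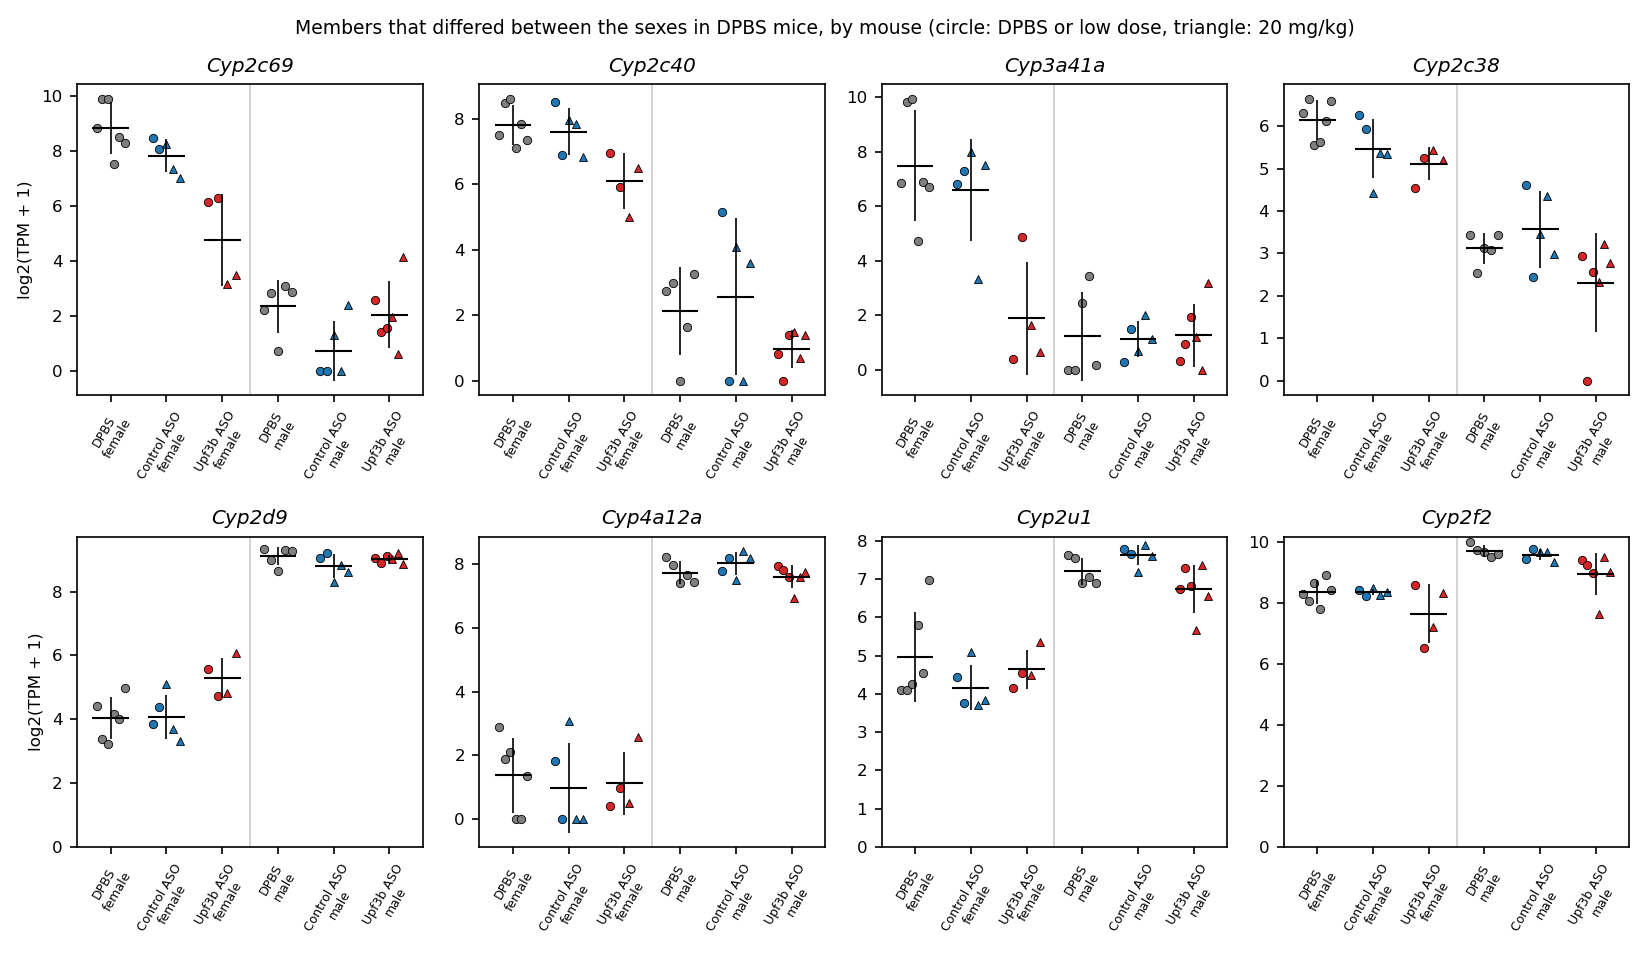
Values of 8 P450 members in every mouse on the log2(TPM + 1) scale (vertical axis), by treatment and sex; circles are DPBS and low-dose mice, triangles 20 mg/kg, lines means and bars SD. *Cyp2c69* in *Upf3b* ASO females (7.91 to 76.0 TPM) lay below every control ASO female (129 to 349 TPM), while *Cyp2d9* kept its separation of the sexes.

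Male-predominant members kept their sex difference under both ASOs. The male minus female log2 difference of *Cyp4a12a* was 6.37 with DPBS, 7.05 with the control ASO and 6.50 with the *Upf3b* ASO. For *Cyp2d9* these values were 5.09, 4.73 and 3.73, with females at 13.5, 20.0, 33.5, 12.1 and 8.96 TPM under the control ASO and 46.7, 25.5, 27.2 and 66.1 TPM under the *Upf3b* ASO. The *Cyp2d9* difference in females, 1.23, did not pass (adjusted p = 0.328). Female-predominant members varied in this respect. In the same order, the sex difference was -5.69, -5.04 and -5.13 for *Cyp2c40*, -3.03, -1.90 and -2.81 for *Cyp2c38*, and -1.65, -1.20 and -1.50 for *Cyp2c37*, and it was close to the DPBS value also for *Cyp2a4* (-1.32, -1.51 and -1.07) and *Cyp2a22* (-1.54, -2.07 and -1.43). For *Cyp2c69* it was -6.46, -7.08 and -2.71, for *Cyp3a41a* -6.27, -5.48 and -0.63, for *Cyp4a14* -2.38, -2.51 and -1.18, and for *Cyp2a5* -2.01, -1.89 and -0.24. These changes between treatments are described and were tested only through the interaction term, which no member passed. *Cyp2a5* females held 4442, 4388, 2337, 5398 and 3839 TPM with the control ASO and 2233, 815, 2518 and 2904 TPM with the *Upf3b* ASO, and its interaction term was 1.65 (unadjusted p = 0.0046), which did not pass over all genes. The lowest of these females was the mouse with 1020676 reads, given 10 mg/kg.

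Over the 42 members with both values, the DPBS sex difference was set beside the *Upf3b* effect, which uses no DPBS mouse. Of 10 members called higher in DPBS females, 9 had lower estimates in *Upf3b* ASO females (median -0.68), of 5 called higher in males 2 did (median 0.18), and of the other 27 members 20 did (median -0.37). The correlation across them was 0.62 by Pearson and 0.39 by Spearman. In males the picture differed, with lower estimates for 3 of the 10 (median 0.34), 4 of the 5 (median -0.43) and 23 of the 27 (median -0.47), and correlations of -0.12 and -0.14. Of the 10, *Cyp2c40* and *Cyp3a41a* entered the ASO comparison only through control ASO groups, as did *Cyp2j9* and *Cyp2j13* of the 27. Such entry favoured lower estimates, so these counts, medians and correlations follow in part from the filter. The correlations are a description over genes, which share libraries and in part reads, and genes are not independent replicates.

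**Figure D4:**
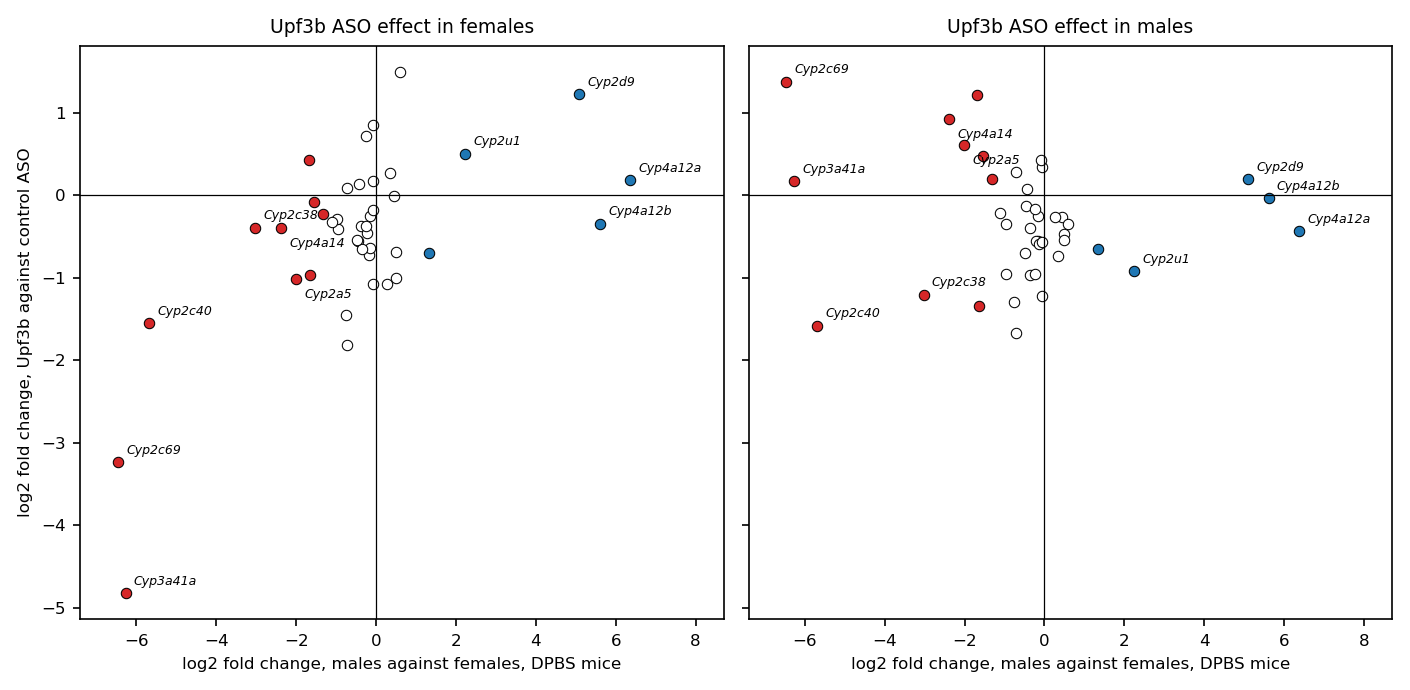
*Upf3b* ASO minus control ASO difference (vertical axis) against the male minus female difference in DPBS mice (horizontal axis), both on the log2(TPM + 1) scale, for 42 P450 members, in females (left) and males (right); red points were called higher in females, blue points higher in males, and white points neither. In females 9 of 10 red points lie below 0, in males 3 of 10. The red points *Cyp2c40* and *Cyp3a41a* entered the ASO comparison only through control ASO groups, which favoured lower estimates.

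The oligonucleotide alone was examined by the Control-GalNAc-ASO against DPBS. None of 44 members passed in limma, against 0.0213% of all genes, and 6 had an unadjusted p below 0.05, against 11.4%. The members' median was 0.03 and that of all genes 0.11. *Cyp2c69* had the lowest p, at -1.28 (SE 0.35, adjusted p = 0.201) or -1.40 relative to the median of all genes. *Cyp2j6* stood at 0.76 (adjusted p = 0.316) and *Cyp4f14* at 0.68 (adjusted p = 0.318). The *Upf3b*-GalNAc-ASO against DPBS gave 2 of 42 members lower, against 0.69% of all genes lower and 0.997% called in either direction, and 13 members had an unadjusted p below 0.05, against 10.4%. *Cyp2c37* fell by 1.24 on the log2 scale (SE 0.28, adjusted p = 0.0153) and *Cyp2c29* by 0.94 (SE 0.21, adjusted p = 0.0173). *Cyp2c29* averaged 334 ± 78.7 TPM with DPBS (SD, n = 11) and 185 ± 64.2 TPM with the *Upf3b* ASO (SD, n = 10), and its call was lost without *Upf3b* ASO 20 mg/kg replicate 6 (adjusted p = 0.0537). Of the 42 members 35 had lower estimates, with a median of -0.26 against 0.04 over all genes. *Cyp2c40*, *Cyp2j9* and *Cyp3a41a* reached the median of 5 TPM only in the DPBS group, which favoured lower estimates. *Cyp4a12b* and *Cyp4a31* reached it only in *Upf3b* ASO groups, which favoured higher ones. That count and median thus follow in part from the filter. In females alone, *Cyp2c69* (-4.05, adjusted p = 0.0042) and *Cyp3a41a* (-5.60, adjusted p = 0.0289) were lower than with DPBS, 2 members against 0.35% of all genes. *Cyp3a41a* entered that test only through the DPBS group, which favoured a lower estimate. In males alone 0 members passed in limma, against 0.456% of all genes. This comparison and that of the 2 ASOs share the *Upf3b* ASO mice, so their calls are not independent.

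Summed over a subfamily, the reads showed the same order for Cyp2c. Cyp2c summed to 2228 ± 782 TPM in DPBS females (SD, n = 6), 1683 ± 399 TPM in control ASO females (SD, n = 5) and 1064 ± 179 TPM in *Upf3b* ASO females (SD, n = 4). In males it was 1106 ± 81.7, 1110 ± 185 and 766 ± 239 TPM (SD, n = 5, 5 and 6). *Upf3b* ASO females, at most 1293 TPM, all lay below the lowest control ASO female, at 1372 TPM, whereas treated males overlapped with controls. Cyp2a summed to 9450 ± 1633, 8913 ± 1724 and 6190 ± 2420 TPM in females, and its lowest treated female, at 2651 TPM, was the mouse with the fewest reads. In males Cyp2a summed to 3766 ± 538, 3864 ± 908 and 4470 ± 870 TPM, so the treated males were not lower. Cyp2e, which is *Cyp2e1* alone, averaged 2857 ± 1299 TPM in control ASO females and 1695 ± 378 TPM in treated females, with overlap. Cyp2d showed no such shift, with 619 ± 73.7 and 635 ± 221 TPM in control and treated females and 1016 ± 151 and 1052 ± 44.5 TPM in males. As a share of all TPM, the members together took 1.75 ± 0.160% in control ASO females (SD, n = 5) and 1.26 ± 0.410% in *Upf3b* ASO females (SD, n = 4), and 1.35 ± 0.212% and 1.21 ± 0.154% in males (SD, n = 5 and 6). No test was made of these sums.

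**Figure D5:**
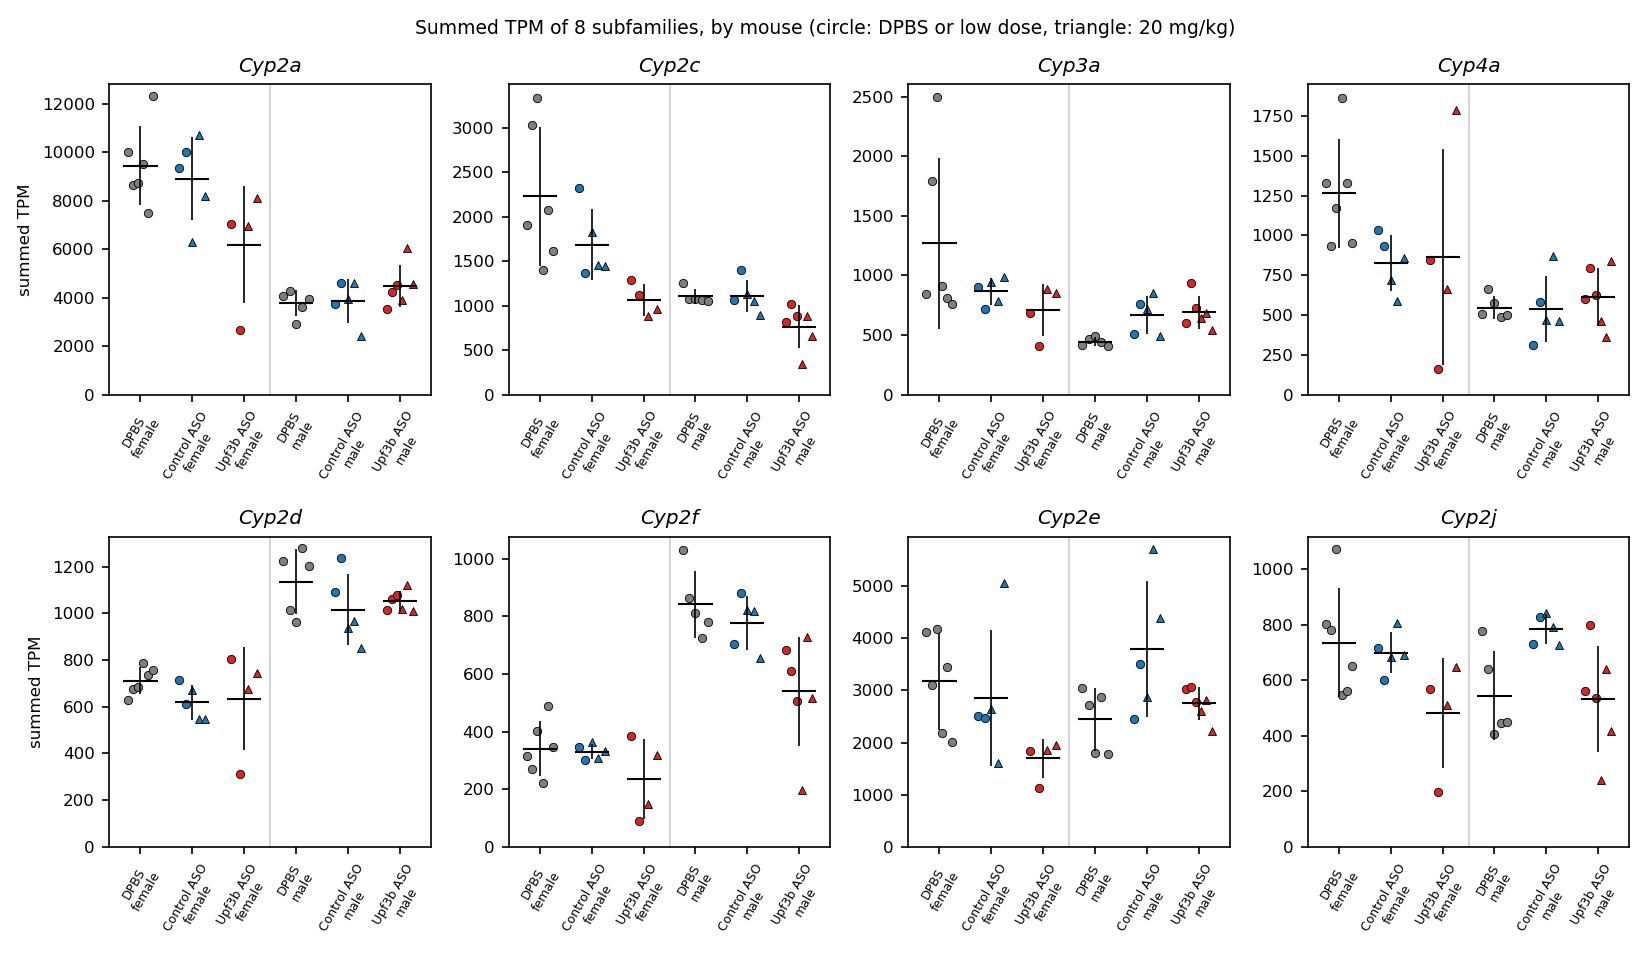
Summed TPM of 8 P450 subfamilies in every mouse (vertical axis), by treatment and sex, with means as lines and SD as bars. Cyp2c sums of *Upf3b* ASO females lie below those of all control ASO females, and Cyp2d sums overlap between the ASOs in both sexes.

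Genes that serve or control the P450 system were read from lists drawn from general knowledge, and in the comparison of both dose sets 3.64% of all genes fell and 6.04% were called in either direction. Of 17 electron donors and haem-supply genes tested, 2 fell with the *Upf3b* ASO against the control ASO and 0 rose. These were *Cyb5a* (-0.71, adjusted p = 0.0349) and *Cyb5b* (-0.85, adjusted p = 0.0418), the microsomal and the mitochondrial cytochrome b5. Of 13 regulators tested, *Nr1i3*, which encodes CAR, fell by 0.94 on the log2 scale (adjusted p = 0.0207). *Nr1i3* averaged 86.6 ± 28.7 TPM with the control ASO and 42.8 ± 17.8 TPM with the *Upf3b* ASO (SD, n = 10 each). Of 15 genes of the growth hormone and sex axis tested, 7 had higher and 8 lower estimates, with a median of -0.13. Among them, *Ghr*, the growth hormone receptor, spanned 86.4 to 222 TPM with the control ASO and 27.1 to 94.6 TPM with the *Upf3b* ASO. The difference of *Ghr* was -1.40 (limma, adjusted p = 0.00024). Among 10 tested P450 genes of other families, 5 fell: *Cyp17a1* (-2.05), *Cyp39a1* (-1.65), *Cyp7b1* (-1.26), *Cyp51* and *Cyp27a1* (-0.66), against the same 3.64% of all genes. These enzymes act in steroid, oxysterol, cholesterol and bile acid synthesis. The part of these genes in the P450 values was not tested.

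Markers of other liver cells were read beside these values. Of the 6 endothelial markers, *Pecam1* rose with the *Upf3b* ASO against the control ASO (log2 difference 1.06), whereas 4 had lower estimates and the list's median was -0.47. The endothelial sum, to which *Pecam1* contributes heavily, was 580 to 1661 TPM (median 846) with the control ASO and 897 to 2222 TPM (median 1664) with the *Upf3b* ASO, while DPBS mice spanned 588 to 2382 TPM. Of the 5 hepatocyte markers, *Serpina1c* fell by 1.18 on the log2 scale and the other 4 did not pass. Macrophage markers summed to 107 to 377 TPM with the control ASO and 62.7 to 390 TPM with the *Upf3b* ASO. Cholangiocyte markers summed to 6.95 to 34.4 TPM (median 17.7) with the control ASO and 16.6 to 199 TPM (median 22.8) with the *Upf3b* ASO. The part of cell make-up in the P450 differences was not tested.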

How the data were processed

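Livers of 31 mice were profiled by RNA sequencing with a 3′-end kit according to the labels, whereas the study's methods name another kit. Per the labels, the authors processed the reads with bcl2fastq 2.17.1.14 and Salmon 0.7.2 against Ensembl 81 transcripts of GRCm38.p4 and deposited TPM per gene symbol. The mice had received 6 doses. Although the values are named TPM, 70.2 to 81.7% of those of a mouse lay within 0.02 read of whole multiples of 1 step, too few for a count test. Date-like symbols (26) were dropped. Values were tested as log2(TPM + 1) with limma 3.58.1 (R 4.3.3, trended and robust), sex as covariate, on genes whose median reached 5 TPM in 1 or more groups, and Benjamini-Hochberg adjustment over all genes. Fold changes on this scale understate low genes. Groups came from the labels; the 8 comparisons, their leave-one-out fits and alternatives are given in the closing section. The members and lists were chosen with earlier results of these data known. Genes were named when leading a subfamily, when called, when among the 5 largest rises or falls, or when listed. Floors of 3 reads cover counting error only. Replicates were separate mice. Simulated data were used to check the scripts. Python 3.11.15, pandas 2.3.3, numpy 2.4.6 and matplotlib 3.10.9 were used. Samples with other targets were not analysed here. Of the listed genes that control the P450 system, 1 result is not reported here.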

Additional observations from a re-analysis of the deposited data

Results flagged for a closer look

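Within groups of 4 to 6 mice, 20 of 270 sets of values held 1 mouse far from the others by Dixon's ratio (7.41%), where chance gives about 1 in 20. The ASO groups mix the sexes, so a single value can also reflect sex. No explanation was tested for any of these values. In DPBS females, replicate 7 was highest for *Cyp2a22* (641 TPM) and *Cyp2j9* (27.9 TPM) and lowest for *Cyp2j6* (17.7 TPM), and this mouse had 1184204 reads. Replicate 10 was highest for *Cyp2a4* (5184 TPM) and *Cyp2u1* (126 TPM), and replicate 6 for *Cyp2c67* (80.5 TPM). With the control ASO, the highest mice were replicate 3 at 15 mg/kg for *Cyp2e1* (3511 TPM) and, at 20 mg/kg, replicate 2 for *Cyp2c54* (136 TPM), replicate 1 for *Cyp3a41b* (17.7 TPM) and replicate 6 for *Cyp4x1* (181 TPM, nearest other 20.1 TPM). With the *Upf3b* ASO at 10 mg/kg, replicate 3 was highest for *Cyp1a2* (397 TPM) and *Cyp3a41a* (28.4 TPM), replicate 1 for *Cyp2a4* (3373 TPM), replicate 4 for *Cyp2c67* (164 TPM) and replicate 5 for *Cyp3a41b* (0.288 TPM, below 3 reads). At 20 mg/kg, replicate 5 was highest for *Cyp2j9* (7.81 TPM), *Cyp3a41a* (7.98 TPM) and *Cyp3a41b* (0.901 TPM), replicate 6 for *Cyp2r1* (9.65 TPM) and replicate 4 for *Cyp4v3* (110.1 TPM).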

How the results depend on the processing

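Of the alternatives for single named genes, 567 values kept their direction and side of the threshold, 54 lost and 7 gained a call, and 1 reversed: *Cyp3a41a* in males alone (*Upf3b* against control ASO, log2 0.17). The cause of each change was not tested. Counts of members called moved as follows. With the study's thresholds (2-fold and unadjusted p below 0.01), 2 members passed at the low doses, 2 at 20 mg/kg, 1 for control ASO against DPBS, 6 for *Upf3b* ASO against DPBS and 4 for treatment by sex. At 20 mg/kg, 0 passed without the TPM filter, without the sex covariate, in males alone or without mice under 2000000 reads, an alternative chosen after seeing the data. Over both dose sets, 0 passed in males alone and 1 in females alone. For *Upf3b* ASO against DPBS, 1 passed without the sex covariate and 0 in males alone, and for treatment by sex 1 passed with a pseudocount of 5. Leaving out 1 mouse gave 0 to 1 members at the low doses (1 without *Upf3b* ASO 10 mg/kg replicate 1), 0 to 1 at 20 mg/kg, 2 to 5 over both dose sets (5 without *Upf3b* ASO 10 mg/kg replicate 4), 1 to 4 for *Upf3b* ASO against DPBS (4 without DPBS replicate 3, 1 without *Upf3b* ASO 20 mg/kg replicate 6), 13 to 17 between the sexes, and 0 elsewhere. It was not run within 1 sex. Calls over all genes were 27 at the low doses (10 without the sex covariate, 2 in females, 56 with a pseudocount of 5, 91 without mice under 2000000 reads, 441 with the study's thresholds, 2 to 431 without 1 mouse), 236 at 20 mg/kg (133 without the filter, 13 in males, 51 in females, 143 without those mice, 584 with the study's thresholds), 592 over both (62 in males, 48 in females), 94 for *Upf3b* ASO against DPBS (43 in males, 33 in females, 187 with all mice in the fit, 240 with the study's thresholds), 127 between the sexes (262 with the study's thresholds), 2 for control ASO against DPBS (124 with the study's thresholds), 1 for treatment by sex (57) and 0 for the dose sets (200).

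The replicate numbers are shared between groups, and whether they pair the mice was not settled. With group and sex taken out, the residuals of same-numbered mice correlated at 0.10, -0.18, 0.36 and -0.03 at the low doses. At 20 mg/kg these residuals correlated at -0.26, -0.09, 0.05, 0.10 and 0.05. With the number as a replicate block, 0 members passed at the low doses, 0 at 20 mg/kg and 3 over both (*Cyp2c37*, *Cyp4f14* and *Cyp2c40*, while *Cyp2j9* was lost), and over all genes 104, 43 and 186. At 1020676 reads, the lowest depth, 3 reads are worth 2.94 TPM, so changes of members below that level were not detectable in every mouse.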
